A study of Mus musculus with 10 samples.

Results

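The Hox genes encode homeodomain transcription factors. All rows of the deposited count tables whose symbol was Hoxa, Hoxb, Hoxc or Hoxd followed by a number were taken, which gave 39 of the 24421 gene rows. Of these 39 genes, 11 belonged to cluster A, 10 to cluster B, 9 to cluster C and 9 to cluster D. Rows were picked by symbol alone and by no measured value, but this set of genes was chosen with earlier results of these data known.

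Counts were available for 10 pools of mouse vagal sensory neurons, in 5 groups of 2 pools. The Trpv1 selection came from Trpv1-tdTomato mice, in which Cre driven from the Trpv1 locus switches on a red reporter, so that the reporter also marks cells that used the locus only earlier in life. It held Trpv1-positive nodose pools of 30 neurons, Trpv1-positive jugular pools of 30 neurons and Trpv1-negative nodose pools of 15 neurons, all picked from the same 2 mice. The capsaicin selection came from C57BL/6 mice and held neurons that had responded to capsaicin, the agonist of TRPV1, in a calcium assay. Its nodose pools (14 and 15 neurons) had also responded to α,β-methylene-ATP, which opens P2X channels, whereas its jugular pools (15 and 16 neurons) had not. No age was given in the labels. Nodose neurons were taken from the most caudal end of the fused ganglion and jugular neurons from the most rostral end. The selection went together with mouse strain, sequencing core and depth, and these cannot be told apart. Nothing in the labels ties a pool to a single animal, so p-values measure the spread between pools, which may be technical.

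Hox genes lie in clusters in which the order of genes along the chromosome matches the order in which they are used along the head-to-tail axis of the embryo. Genes with low paralogue numbers are used in the hindbrain and neck, and genes with high numbers in the trunk and tail. Retinoic acid, made by the embryo's trunk, switches on the low-numbered genes through nuclear receptors. Nodose neurons derive from the epibranchial placodes and jugular neurons from the neural crest.

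Total counts per pool ran from 148452506 to 167704327 for the Trpv1 selection and from 17666710 to 30810863 for the capsaicin selection. Levels are given as CPM (normalised counts per 1e6, scaled with size factors over all 10 pools), and 3 counts, the floor at or under which a gene counted here as not detected, were worth 0.0116 to 0.0154 CPM in pools of the Trpv1 selection but 0.118 to 0.176 CPM in those of the capsaicin selection. Such floors cover counting error only, since amplified reads are not independent molecules. Trpv1 itself was at 0.0334 and 0.0348 CPM in the Trpv1-negative pools and 17.8 to 248 CPM in the other 8. P2rx2, a nodose marker, was at 61.4 to 548 CPM in the nodose pools and at most 0.235 CPM in the jugular pools, and Prdm12, a jugular marker, was at 22.2 to 147 CPM in the jugular pools and at most 0.19 CPM in the nodose pools. The 7 markers of glia summed to 2261 to 3388 CPM per pool of the Trpv1 selection, against 184 to 668 CPM per pool of the capsaicin selection. The 5 endothelial markers summed to at most 23 CPM, the 5 immune markers to at most 75.7 CPM and the 6 fibroblast markers to at most 239 CPM. The 4 sympathetic markers summed to 668 and 690 CPM in capsaicin-sensitive nodose pools, 0.549 and 0.25 CPM in capsaicin-sensitive jugular pools and 44.3 to 117 CPM in the 6 pools of the Trpv1 selection. In the capsaicin-sensitive nodose pools Th gave 667 and 686 CPM of this, Dbh had no count there, and Hand2 had none in any pool. Dbh was at 17.7 and 43.7 CPM in the Trpv1-negative nodose pools and at most 0.0245 CPM in the other 8.

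The promoter windows of a pair of genes, Hoxb4 and Hoxd1, are shown first. Between Trpv1-positive nodose and jugular pools their levels differed in opposite directions, as given below. edgeR called neither gene, and Hoxd1 had no count in the capsaicin selection. Each is the 250 bases upstream of the start site, from RefSeq on GRCm38.p6, plus strand, written 5′ to 3′. The window of Hoxb4 is chr11:96318017-96318266. The window of Hoxd1 is chr2:74762730-74762979. Its first part overlaps the first exon of Haglr, a long noncoding RNA gene on the opposite strand that starts at 74762896. Capitals mark the motif found.
Hoxb4: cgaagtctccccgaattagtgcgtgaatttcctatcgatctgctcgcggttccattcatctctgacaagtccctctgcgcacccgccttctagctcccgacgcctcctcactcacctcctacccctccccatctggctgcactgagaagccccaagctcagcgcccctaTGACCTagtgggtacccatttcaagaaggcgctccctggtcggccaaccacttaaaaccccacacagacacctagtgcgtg
Hoxd1: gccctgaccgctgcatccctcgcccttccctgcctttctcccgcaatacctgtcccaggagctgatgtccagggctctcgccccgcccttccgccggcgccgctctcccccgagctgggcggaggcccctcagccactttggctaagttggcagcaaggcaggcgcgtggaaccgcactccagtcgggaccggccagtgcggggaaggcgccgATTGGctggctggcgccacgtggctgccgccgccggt
In Hoxb4 the capitals are an AGGTCA half-site of retinoid receptors on the minus strand, whose first base lies 81 bases before the start site. In Hoxd1 the capitals are a CCAAT box on the minus strand, 37 bases before the start site. Both strands were searched for these motifs, for the TATA box (TATAAA) and for a site bound by Hox and Pbx proteins together (TGATNNAT), and matches of different motifs were allowed to overlap. The half-site stood in 14% of 32851 windows of the same length and in 6 of the 24 windows of Hox genes. The CCAAT box stood in 33.8% of all windows and in 14 of the Hox windows, the TATA box in 12.4% and 4, and the site of Hox and Pbx proteins in 7.68% and 4. The 24 windows belonged to 22 Hox genes. A match describes letters and not a bound site. No window was listed for Hoxb2, Hoxb3, Hoxb5 and Hoxb6.

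Few of the 39 genes reached a substantial level in any pool. A level of at least 10 CPM in both pools of a group was reached by 5 genes, Hoxb2, Hoxb4, Hoxb5, Hoxb6 and Hoxd1, of which 4 lie in cluster B. In 3 others, Hoxa4, Hoxb3 and Hoxc4, a level of 10 CPM was reached in a single pool of a group. Hoxd3 and Hoxd8 stayed between 1 and 10 CPM at their highest. A further 11 genes exceeded 3 counts without reaching 1 CPM: Hoxa2, Hoxa3, Hoxb1, Hoxb8, Hoxb9, Hoxc5, Hoxc6, Hoxc8, Hoxd4, Hoxd9 and Hoxd11. Hoxa5, Hoxb7, Hoxc13 and Hoxd10 had 1 to 3 counts at most. The remaining 13 had no count in any pool: Hoxa6, Hoxa7, Hoxa9, Hoxa10, Hoxa11, Hoxa13, Hoxb13, Hoxc9, Hoxc10, Hoxc11, Hoxc12, Hoxd12 and Hoxd13. All of these 13 except Hoxa6 and Hoxa7, that is 11, were among the 16 Hox genes with a paralogue number of 9 or more.

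**Figure D1:**
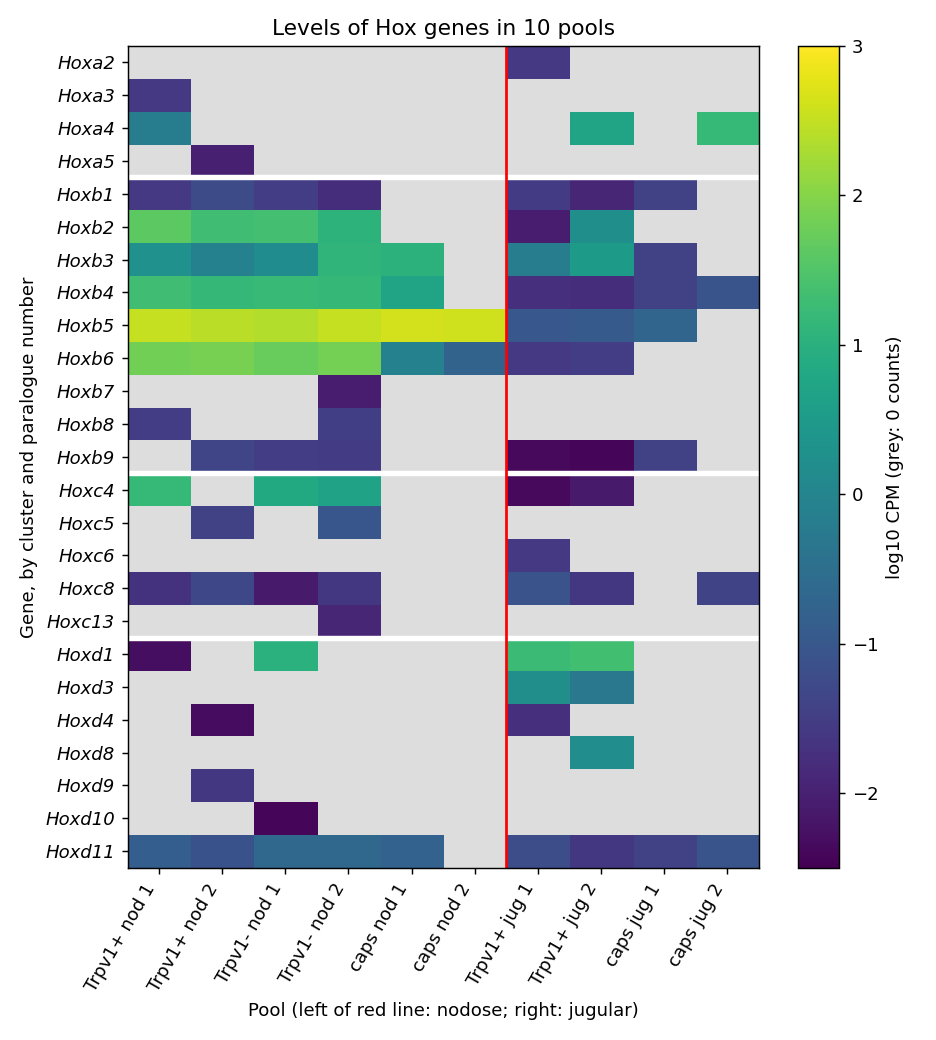
Level of Hox genes that had a count in at least 1 pool, as log10 CPM (colour) for each gene (rows, by cluster and paralogue number) in each of the 10 pools (columns), with grey for 0 counts and a red line between nodose and jugular pools. Hoxb5 is the brightest row in the 6 nodose pools, at 233 to 417 CPM, and Hoxd1 reaches 17.7 and 21.4 CPM in the Trpv1-positive jugular pools.

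Hoxb5, a gene of the middle of cluster B that takes part in development of the vagal region, was the most abundant Hox gene per length in all 6 nodose pools. It lies at chr11:96303336-96306121 on the plus strand (GRCm38, ENSMUSG00000038700.4). Its level was 325 and 273 CPM in the Trpv1-positive nodose pools, 233 and 327 CPM in the Trpv1-negative nodose pools and 417 and 410 CPM in the capsaicin-sensitive nodose pools. It was 0.099 and 0.113 CPM in the Trpv1-positive jugular pools and 0.196 and 0 CPM in the capsaicin-sensitive jugular pools. All nodose pools stood far above all jugular pools, with no overlap.

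The mean of Hoxb5 in Trpv1-positive neurons was 299 ± 36.2 CPM for nodose against 0.106 ± 0.00994 CPM for jugular pools (SD, n = 2 each). The log2 fold change was 11.44 with a standard error of 0.62 and an adjusted p of 0.0187 (edgeR's quasi-likelihood test, Benjamini-Hochberg adjustment). Hoxb5 was the only one of the 10 Hox genes tested that was called, where a call needed an adjusted p no higher than 0.1, a change of 2-fold or more and 10 CPM in both pools of a group. Over all genes 0.318% were called, of which 0.182% higher and 0.136% lower in nodose. DESeq2 called 4 Hox genes, Hoxb4, Hoxb5, Hoxb6 and Hoxd1, against 3.46% of all genes, and 5 of the 10 had an unadjusted p under 0.05 by edgeR, as did 11.9% of all genes tested. Leaving out a pool leaves its group with 1 pool, which is then assumed to vary like the other group. Leaving out any single pool ended the call, with adjusted p of 0.22 to 0.702, and left no gene called in the whole table, while the log2 fold change stayed at 11.32 to 11.55.

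The same gene was compared in the capsaicin selection, with means of 413 ± 5.13 CPM for nodose against 0.0981 ± 0.139 CPM for jugular pools (SD, n = 2 each). The log2 fold change was 11.65 with a standard error of 1.95, and the adjusted p was 0.352 by edgeR, so it was not called. Hoxb5 was the sole Hox gene that passed the filter on low counts there. edgeR called 0 of 8181 genes (0%) in this comparison. Hoxb5 was the sole Hox gene there with an unadjusted p under 0.05 (0.00157), as 14.1% of all genes had, and DESeq2 gave it an adjusted p of 0.000223 and called 734 genes (6.83%). edgeR did call it with no filter on low counts, at an adjusted p of 1.51e-06, with the spread of all 10 pools, at 0.0057, and, in fits where the spread came from 1 group only, without the first (0.00839) or the second (0.0901) jugular pool, but not without the first (0.109) or the second (0.15) nodose pool. The summed sympathetic markers given above also differed between these groups, and their part was not tested.

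Over both selections, in a fit to the 8 nodose and jugular pools with the selection as a covariate, Hoxb5 had a log2 fold change of 11.61, a standard error of 1.05 and an adjusted p of 0.000554 by edgeR. This fit holds the pools of both comparisons above and is not further evidence beside them. It called 0.577% of all genes, 0.268% higher and 0.309% lower in nodose, and 1 of the 9 Hox genes tested, while DESeq2 called 3 Hox genes and 8.39% of all genes. The call remained when any single pool was left out, with adjusted p of 0.000197 to 0.00204. The interaction of ganglion with selection was -0.19 on the log2 scale for Hoxb5, with a standard error of 1.44 and a 95% interval of -3.43 to 3.05, and edgeR called none of 9 Hox genes and none of all genes (0%). No Hox gene had an unadjusted p under 0.05 in the interaction, against 10.3% of all genes, whereas DESeq2 called 2 Hox genes, Hoxa4 and Hoxd1, and 19.4% of all genes. Hoxb2, Hoxd1 and Hoxd3 had no count in the capsaicin selection, so the data hold no estimate of their interaction. Their standard errors by edgeR were 8317, 18045 and 20066, and that of Hoxb6 was 19.7. For these genes the absence of a low p does not show that the selections were alike. An exact permutation of 2 against 2 pools cannot give a p under 0.33, so no such test was used for single comparisons.

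Hoxb6, the neighbour of Hoxb5 in cluster B, was the other Hox gene whose 6 nodose pools all stood above the 4 jugular pools. It lies at chr11:96292476-96301569 on the plus strand. It was at 66.3 and 74.1 CPM in the Trpv1-positive nodose pools, 52.1 and 71.4 CPM in the Trpv1-negative nodose pools and 0.834 and 0.176 CPM in the capsaicin-sensitive nodose pools. It was at 0.0258 and 0.0323 CPM in the Trpv1-positive jugular pools and had no count in the capsaicin-sensitive jugular pools. The capsaicin-sensitive nodose pools rested on 20 and 3 counts. The second of them was not above the floor, so its rank above the jugular pools is not secure.

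In Trpv1-positive neurons the log2 fold change of Hoxb6 was 11.20 with a standard error of 1.60 and an adjusted p of 0.157 by edgeR, above the threshold. DESeq2 called it, with an adjusted p of 4.09e-11. Over both selections the log2 fold change was 11.01 with a standard error of 2.43 and an adjusted p of 0.121. Among the 11394 genes that reached 10 CPM in a pool, 115 (1.01%) had all nodose pools above all jugular pools and 176 (1.54%) the reverse. Hoxb5 and Hoxb6 are the 2 Hox genes among the 115, Hoxb6 with 1 nodose pool at the floor. The antisense gene Hoxb5os overlaps both genes and had 962 and 713 counts in 1 pool each of Trpv1-positive and Trpv1-negative nodose neurons and none elsewhere. Whether counting used strand is not given in the sources used here, so reads of Hoxb5os cannot be told apart from those of Hoxb5 and Hoxb6.

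Hoxb4, which patterns the hindbrain and upper neck, was found in nodose pools of the Trpv1 selection. It lies at chr11:96318267-96321638 on the plus strand, with the window printed above directly before it. Its level was 20.9 and 14.9 CPM in the Trpv1-positive nodose pools, 15.9 and 14.9 CPM in the Trpv1-negative nodose pools, and 5.17 and 0 CPM in the capsaicin-sensitive nodose pools. It was 0.0172 and 0.0162 CPM in the Trpv1-positive jugular pools and 0.0392 and 0.0834 CPM in the capsaicin-sensitive jugular pools. The second capsaicin-sensitive nodose pool had no count, where 3 counts were worth 0.176 CPM, more than any jugular value, so it cannot be ranked against the jugular pools.

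In Trpv1-positive neurons the log2 fold change of Hoxb4 was 10.01 with a standard error of 2.65 and an adjusted p of 0.321 by edgeR, and DESeq2 called it with an adjusted p of 1.11e-08. Pooled counts differed 1070-fold, with 7107 counts in nodose and 8 in jugular.

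Hoxb2, which specifies motor neurons of the hindbrain, lies at chr11:96350525-96354012 on the plus strand. It was at 40.7 and 20.3 CPM in the Trpv1-positive nodose pools and at 22.3 and 11.6 CPM in the Trpv1-negative nodose pools. The capsaicin-sensitive nodose pools had no count. Of the jugular pools, the second Trpv1-positive pool held 1.7 CPM (422 counts), the first 0.00861 CPM (2 counts), and the capsaicin-sensitive pools none. Within the Trpv1 selection the nodose and jugular pools did not overlap, but the share of all genes with such a gap was not computed. The log2 fold change in Trpv1-positive neurons was 5.13 with a standard error of 2.82 and an adjusted p of 0.634 by edgeR, and neither tool called it.

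Hoxd1 was highest in the Trpv1-positive jugular pools, in contrast to Hoxb2, Hoxb4, Hoxb5 and Hoxb6. In the mouse it is known for its part in the wiring of nociceptors downstream of nerve growth factor. It lies at chr2:74762980-74765142 on the plus strand. Its level was 17.7 and 21.4 CPM in the Trpv1-positive jugular pools, 0.00515 and 0 CPM in the Trpv1-positive nodose pools, and 10.4 and 0 CPM in the Trpv1-negative nodose pools. All 4 capsaicin-sensitive pools, nodose and jugular, had no count, and 3 counts in each correspond to 0.118 to 0.176 CPM. The 2696 counts of the first Trpv1-negative nodose pool stood beside 0 in its replicate, so the values of that group disagree.

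In Trpv1-positive neurons the log2 fold change of Hoxd1 was -12.62, nodose over jugular, with a standard error of 3.23 and an adjusted p of 0.321 by edgeR. DESeq2 called it lower in nodose, with an adjusted p of 3.15e-07. The nodose side rested on 1 count against 9393 in jugular, a 7796-fold difference in pooled counts whose counting interval runs from 1399 to 307977. Hoxd3, further along cluster D, had 391 and 124 counts in the Trpv1-positive jugular pools (1.68 and 0.501 CPM) and none in the other 8, and was at least 142-fold lower in Trpv1-positive nodose pools against a floor of 3 counts over the group. Its adjusted p was 0.321 by edgeR and 0.00119 by DESeq2, and its level was under the 10 CPM that a call needed. The antisense gene Hoxd3os1, which overlaps Hoxd3 and Hoxd8, had 327 and 66 counts in the same 2 pools and at most 1 elsewhere, and its reads cannot be told apart from theirs. Haglr, which also overlaps Hoxd3 on the opposite strand, had 2 and 259 counts in those pools. It also had 935 counts in the first Trpv1-negative nodose pool, 427 in the first capsaicin-sensitive jugular pool and at most 1 in the rest.

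**Figure D2:**
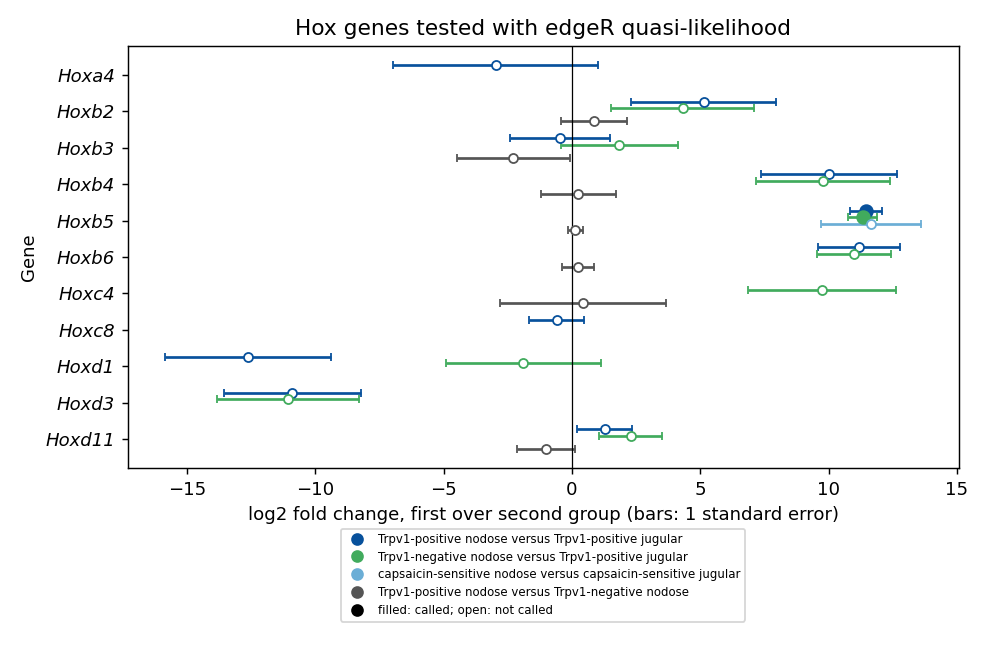
Log2 fold change of each Hox gene tested, first over second group, with 1 standard error, in 4 comparisons (edgeR's quasi-likelihood test). Filled points are called and open points are not: Hoxb5 is called in both comparisons with Trpv1-positive jugular pools, and the comparison within nodose neurons lies near 0 for Hoxb4, Hoxb5 and Hoxb6.

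Hoxa4, Hoxb3 and Hoxc4 had replicates that disagreed within a group. Hoxa4 ranged from 0 to 0.674 CPM in nodose and from 0 to 15.3 CPM in jugular pools, present in 1 of 2 pools of each jugular group. Hoxb3 ranged from 0 to 12.6 CPM in nodose and from 0 to 3.13 CPM in jugular pools. Hoxc4 ranged from 0 to 15.5 CPM in nodose pools and reached at most 0.00808 CPM in jugular pools, with 3002 counts in the first Trpv1-positive nodose pool and none in the second. None was called in any comparison by edgeR. Hoxd8 had 386 counts (1.56 CPM) in the second Trpv1-positive jugular pool alone.

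Such absences in a single replicate were common. Of the Hox genes at 1 CPM or more in a pool of a group, the other pool held 3 counts or fewer for 1 of 6 in Trpv1-positive nodose, 1 of 7 in Trpv1-negative nodose, 2 of 3 in capsaicin-sensitive nodose, 3 of 6 in Trpv1-positive jugular and 2 of 2 in capsaicin-sensitive jugular neurons. Over all genes the share was 13.5% to 15.7% for groups of the Trpv1 selection, against 30.6% and 42.2% for those of the capsaicin selection. In pools of this size, fewer cells with a transcript and less transcript per cell cannot be told apart.

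Along cluster B, levels per kilobase of exon differed widely from gene to gene. In the 4 nodose pools of the Trpv1 selection they were 7.13 to 25 for Hoxb2, 0.238 to 3.57 for Hoxb3, 5.8 to 8.16 for Hoxb4, 123 to 173 for Hoxb5 and 26.5 to 37.8 CPM per kilobase for Hoxb6. Hoxb1 and the genes from Hoxb7 to Hoxb13 stayed under 0.06 CPM. Relative to Hoxb5 per length, Hoxb6 was at 0.197 to 0.262 in those pools, Hoxb4 at 0.0336 to 0.0503 and Hoxb2 at 0.0413 to 0.146. In the capsaicin-sensitive nodose pools Hoxb6 was at 0.00193 and 0.000413 of Hoxb5.

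**Figure D3:**
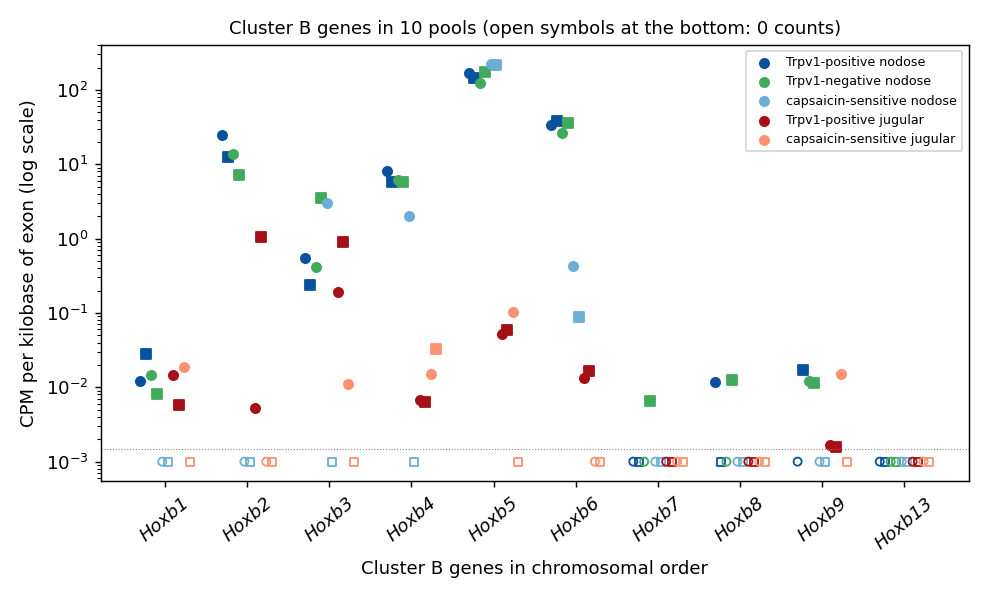
Level of the cluster B genes in CPM per kilobase of exon (log axis), in chromosomal order, for each of the 10 pools, with circles and squares for the first and second pool of a group and open symbols at the bottom for 0 counts. The peak is at Hoxb5, where the nodose pools sit at 123 to 220. In the Trpv1 selection Hoxb2 is at 7.13 to 25 in nodose pools and at most 1.05 in jugular pools. Hoxb4 is at 5.8 to 8.16 against at most 0.00671 there, and Hoxb6 at 26.5 to 37.8 against at most 0.0165.

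Cluster B made up 95.3% to 100% of the summed Hox level per length in the nodose pools, and Hoxb5 alone 69% to 75.9% for the Trpv1 selection, against 97.5% and 100% for the capsaicin selection. In jugular pools cluster B made up 2.71% and 11.6% in the Trpv1-positive pools and 82.3% in the first capsaicin-sensitive pool. The pool at 82.3% held only 10 Hox counts in all. Cluster D led in the Trpv1-positive jugular pools, at 10.1 and 12.2 CPM per kilobase. In the second capsaicin-sensitive jugular pool clusters B and D were at 0.0325 and 0.075 CPM per kilobase, below Hoxa4 at 9.63. Cluster C was at most 6.03 in any pool.

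By paralogue number, group 5 led in every nodose pool, at 123 to 220 CPM per kilobase, and group 1 led in the Trpv1-positive jugular pools, at 9.52 and 11.5, through Hoxd1. Group 6 followed in the nodose pools of the Trpv1 selection, at 26.5 to 37.8. Groups 7, 9, 10, 12 and 13 stayed under 0.03 in all pools. Group 4 came mostly from Hoxb4 and Hoxc4 in the nodose pools of the Trpv1 selection, and from Hoxa4 in the 2 jugular pools that held that gene.

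**Figure D4:**
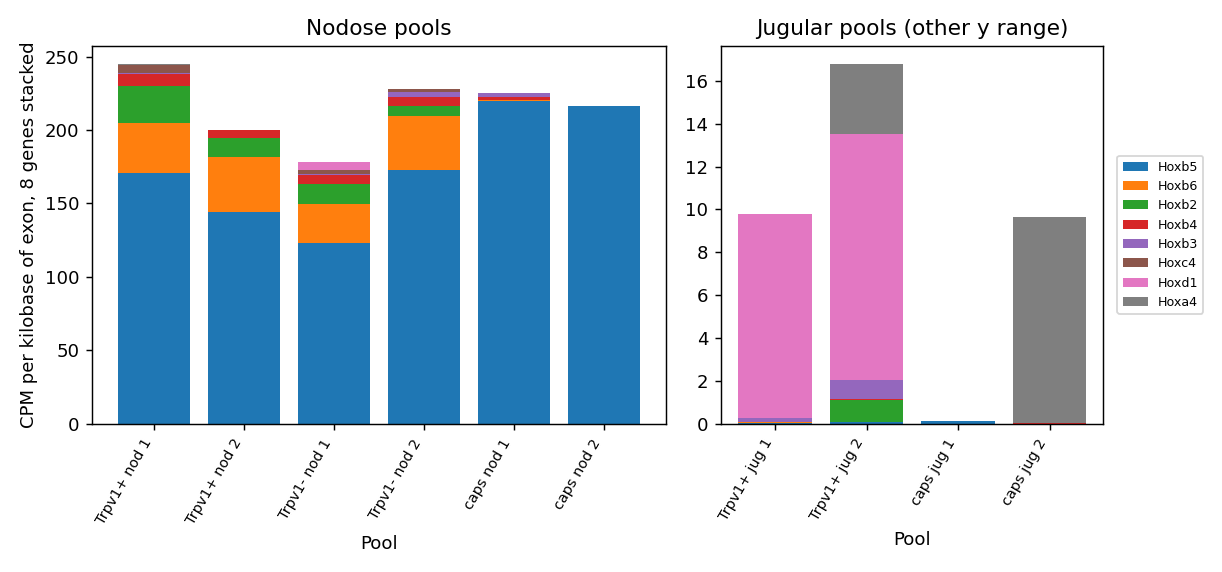
Level of 8 Hox genes per pool in CPM per kilobase of exon, stacked by gene, with nodose pools on the left and jugular pools on the right on a smaller scale. Hoxb5 forms the largest part of each nodose bar, at 123 to 220, whereas Hoxd1 leads the Trpv1-positive jugular bars and the first capsaicin-sensitive jugular pool is close to 0.

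Whether the Hox level went with Trpv1 within the nodose ganglion was asked by setting Trpv1-positive against Trpv1-negative nodose neurons. The log2 fold change of Hoxb5 was 0.13 with a standard error of 0.30 and an adjusted p of 0.983. Hoxb6 was at 0.22 with a standard error of 0.62, Hoxb4 at 0.25 with a standard error of 1.45, and Hoxb2 at 0.86 with a standard error of 1.30. edgeR called none of the 7 Hox genes tested, none had an unadjusted p under 0.05 (11.1% of all genes did) and DESeq2 called none, while edgeR called 0.0527% of all genes, all higher in Trpv1-positive neurons, and DESeq2 2.26%. The 95% interval of the log2 difference was -0.63 to 0.88 for Hoxb5 and -1.36 to 1.8 for Hoxb6. It was wider for Hoxb4, at -3.45 to 3.94, and for Hoxb2, at -2.46 to 4.18.

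Trpv1-negative nodose neurons were also set against Trpv1-positive jugular neurons. This pair was not a comparison of the study and shares its jugular pools with the first one. Hoxb5 had a log2 fold change of 11.33, a standard error of 0.57 and an adjusted p of 0.00769 and was called, as 1 of 9 Hox genes tested, where 0.226% of all genes were called with 0.0869% higher and 0.139% lower. DESeq2 called 3 Hox genes and 3.79% of all genes. Hoxb6 was at 11.00 with a standard error of 1.44 and an adjusted p of 0.129. Hoxc4 was at 9.73 with a standard error of 2.88 and an adjusted p of 0.288. Leaving out any 1 of the 4 pools ended the call of Hoxb5, with adjusted p of 0.245 to 0.331.

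The selections differed in which Hox genes accompanied Hoxb5 in nodose neurons. Trpv1-positive nodose pools held Hoxb2 and Hoxb6 at 20.3 to 74.1 CPM, whereas capsaicin-sensitive nodose pools held none and at most 0.834 CPM. In a comparison added after the counts were seen, Hoxb2 was at least 414-fold higher in Trpv1-positive pools, against a floor of 3 counts over the other group. The log2 fold change of Hoxb6 was 7.47 with a standard error of 2.65, and both genes had an adjusted p of 0.24 by edgeR. None of the 6 Hox genes tested was called, where 0.592% of all genes were, 0.169% higher and 0.423% lower. The unadjusted p was under 0.05 for Hoxb2 and Hoxb6, as for 20.7% of all genes, and DESeq2 called both, against 7.23% of all genes. The log2 fold change of Hoxb5 was -0.044 with a standard error of 0.58 and a 95% interval of -1.45 to 1.36. On the CPM scale, however, its means were 299 CPM in Trpv1-positive and 413 CPM in capsaicin-sensitive nodose pools, 1.39-fold lower by pooled counts in the former. The edgeR fit scales pools with TMM and CPM uses DESeq2 size factors. The median log2 fold change over all genes tested in that fit was 0.617, so equal levels of Hoxb5 are not shown. The 2 nodose groups also differed in strain, core and depth, as given above. Summed glial markers were 3092 and 3109 CPM in the Trpv1-positive nodose pools against 668 and 529 CPM in the capsaicin-sensitive ones, and their part in this difference was not tested.

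Hox proteins bind DNA with partners of the TALE class, such as Pbx and Meis proteins. Of 11 such genes, 9 were tested between Trpv1-positive nodose and jugular neurons, and none was called, with 1 at an unadjusted p under 0.05 and 1 called by DESeq2. Their median log2 fold change was 0.10, beside 0.027 over all genes tested, of which 11.9% had an unadjusted p under 0.05 and DESeq2 called 3.46%. The same shares apply to the other lists below. Meis3 was at 0 to 48.1 CPM in nodose and 0.237 to 23.6 CPM in jugular pools, which overlapped. Meis1, chosen after its values were seen, was at 27.4 and 53.7 CPM in the capsaicin-sensitive jugular pools and at most 0.0709 CPM in the other 8.

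Of 19 upstream regulators, among them retinoid receptors, Cdx factors and enzymes that make or remove retinoic acid, 5 were tested in Trpv1-positive neurons. None was called by edgeR or DESeq2, and 1 had an unadjusted p under 0.05, with a median log2 fold change of 2.07 over the 5. Rxrg, a retinoid X receptor, was at 0 to 19.3 CPM in nodose and 0.0215 to 146 CPM in jugular pools, and Rxrb at 0 to 32.1 and 0 to 1.63 CPM. The 3 Cdx genes, which switch on trunk Hox genes in the embryo, had 3 counts or fewer in every group. Of 13 chromatin regulators of the Polycomb and Trithorax kind, 8 were tested, none was called by edgeR, none had an unadjusted p under 0.05 and DESeq2 called 1, and their median was -0.077. Kdm6b, which removes the repressive mark of Polycomb, was at 0.592 to 657 CPM in nodose and 3.46 to 134 CPM in jugular pools. Ezh1, which writes that mark, was at 14 to 207 and 25 to 199 CPM.

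Genes within or next to the clusters were taken as 26 neighbours, of which 6 were tested in Trpv1-positive neurons. None was called by edgeR, 2 had an unadjusted p under 0.05 and DESeq2 called 1, with a median log2 fold change of -2.12. Skap2, beside cluster A, was at 0 to 165 CPM in nodose and 24.2 to 126 CPM in jugular pools, and Mtx2, beside cluster D, at 7.42 to 50 and 5.89 to 98.8 CPM. Hotairm1, a noncoding RNA of cluster A chosen after its values were seen, had 11.7, 11.5, 2.41 and 2.53 CPM in nodose neurons of the Trpv1 selection, 8.12 and 8.74 CPM in its jugular neurons and no count in the capsaicin selection. Hoxa4 overlaps Hoxa3 and the antisense gene Hoxaas3, and reads shared between such genes are uncertain.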

How the data were processed

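Raw counts for each gene symbol and pool were deposited by the authors, made per their methods with the SMARTer ultra-low input kit, CASAVA 1.8.2, TopHat2 2.0.9 and Bowtie2 2.1.0.0 on mm10 and HTSeq. The counting annotation, mode and strand setting are not given in the sources used here. The deposited counts were not normalized.

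CPM here is counts over DESeq2 size factors of all 10 pools, scaled to the geometric mean total. Levels per kilobase use the exon union of GENCODE vM21 basic (GRCm38). Counts were tested with edgeR 4.0.16 in R 4.3.3 (quasi-likelihood, TMM, filterByExpr by group, Benjamini-Hochberg over all genes tested), with DESeq2 1.42.0, the tool of the study, as an alternative. Calls needed an adjusted p no higher than 0.1, a change of 2-fold or more and 10 CPM in both pools of a group. The standard error is the size of the log2 fold change over the square root of F, and 95% intervals use the total degrees of freedom of the fit. The scripts were tested on simulated data. Python 3.11.15 made the tables and plots.

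Genes were described pool by pool where they reached 10 CPM in both pools of a group or were called. Genes with 10 CPM in a single pool of a group were named with ranges, as were the 2 most abundant members of each list of cofactors, regulators and neighbours, except that 1 Hox gene and 1 cofactor are not reported here. The members and lists were chosen with earlier results of these data known. Replicates of a group differed beyond sampling noise, so each was counted as its own library.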

Additional observations from a re-analysis of the deposited data

How the results depend on the processing

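The number of called genes depended on the test, and the cause was not tested. For Trpv1-positive nodose against jugular neurons edgeR called 35 genes, DESeq2 459, edgeR with no filter on low counts 59 and edgeR without 1 pool 0 in each case. For capsaicin-sensitive nodose against jugular neurons the values were 0, 734, 122 and 0 to 29, with 110 under the spread of all 10 pools. For Trpv1-positive against Trpv1-negative nodose neurons they were 6, 320, 10 and 0 in each case. For Trpv1-negative nodose against Trpv1-positive jugular neurons they were 26, 537, 47 and 1 to 2, with 14 under the spread of all 10 pools. Over both selections they were 69, 1156, 222 and 38 to 89, with 213, and for the interaction 0, 2552, 101 and 0 to 195, with 7. For Trpv1-positive against capsaicin-sensitive nodose neurons they were 56, 837, 256 and 9 to 121, with 616. Where 1 pool was left out, its group kept a single pool, which was assumed to vary like the other groups.

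The number of Hox genes called higher went from 1 to 3 under DESeq2 against Trpv1-positive jugular neurons, for both nodose groups, and over both selections. It went from 0 to 1 in the capsaicin selection and the interaction, and from 0 to 2 between Trpv1-positive and capsaicin-sensitive nodose neurons. DESeq2 also called 1 lower in Trpv1-positive neurons and 1 in the interaction. With no filter 1 was called in the capsaicin selection and 2 between Trpv1-negative nodose and Trpv1-positive jugular neurons. With the spread of all 10 pools 1 was called in the capsaicin selection and 2 over both selections. Leaving out 1 pool gave 0 against Trpv1-positive jugular neurons, 0 to 1 in the capsaicin selection and 1 to 2 over both selections, where the value of 2 was without the second capsaicin-sensitive nodose pool. The number of Hox genes over 10 CPM in both pools of a group, 4 in each nodose group of the Trpv1 selection, 1 in capsaicin-sensitive nodose, 1 in Trpv1-positive jugular and 0 in capsaicin-sensitive jugular neurons, stayed within 1.5 times under another CPM scale.

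Log2 differences of Hoxb5 near 0 changed sign. Between Trpv1-positive and Trpv1-negative nodose neurons it was -0.068 to 0.34 when 1 pool was left out. The interaction was -6.84 to 0.75, the ends being without the first and the second capsaicin-sensitive jugular pool. Between Trpv1-positive and capsaicin-sensitive nodose neurons it was 0.11 with no filter, 0.051 with the spread of all 10 pools, 0.013 without Rn45s and -0.16 to 0.12 when 1 pool was left out. None of these was called.

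The labels do not say whether same-numbered replicates share an animal. The correlation of their deviations across genes was -0.0137 to 0.0177, with 2 pairs in each comparison. Such a correlation cannot settle it, because replicates often differed by absences in a single pool. With the replicate block edgeR called 13 genes in Trpv1-positive nodose against jugular neurons, 20 in the capsaicin selection, 1 between the nodose groups of the Trpv1 selection, 2 between Trpv1-negative nodose and Trpv1-positive jugular neurons, 41 over both selections and 214 between Trpv1-positive and capsaicin-sensitive nodose neurons. Under that block 1 Hox gene, Hoxb5, was called in the capsaicin selection, and 0 between Trpv1-negative nodose and Trpv1-positive jugular neurons, where its adjusted p was 0.13.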
